A study of Mus musculus with 23 samples.

Results

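Saline-instilled lungs of Fat-1 mice were compared with saline-instilled lungs of wild-type (WT) mice, which gives the resting profile of myeloid and inflammatory genes on which any response to organic dust is built. The 10 lungs were chosen by the extract code, as all lungs whose code carries the saline letter, out of 23 lungs in the series. They comprised 5 Fat-1 lungs and 5 WT lungs, each with 2 females and 3 males, and each with 2 lungs extracted on day 1 and 3 on day 2. Each left lung stands for a mouse of its own. The design text speaks of 3 lungs for each combination of sex, genotype and exposure, while by code the female saline groups hold 2 each. All 10 mice had received 14 instillations of PBS, the vehicle of the organic dust extract, and bronchoalveolar lavage fluid was drawn before the left lobe was tied off, so cells recovered in that fluid were not in the measured RNA. Total RNA of the left lung, kept in RNAlater, was counted on a NanoString mouse myeloid panel, in which colour-coded probes are hybridised to transcripts and counted without amplification. The sources used here do not name the promoter that drives the Fat-1 transgene, the strain background or the age of the mice, and expression of the transgene was not analysed here. Values are normalized counts, and a gene that had fewer than 20 counts in a lung, or a normalized count under 20, is listed at a floor of 20.

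Labels disagreed for 3 of the 10 lungs. Fat-1 female lung 1 of day 1 and Fat-1 male lung 2 of day 2 carry a Fat-1 code, while their titles and characteristics name WT females after saline. WT male lung 2 of day 2 has a title that names a WT female after dust, while its characteristics match the code. Grouping followed the code. Some differences are also given by the characteristics, and results without these 3 lungs are given only as counts of genes that passed.

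Fat-1 mice carry the fat-1 gene of a nematode, whose enzyme turns omega-6 into omega-3 fatty acids, so their tissues hold more of the omega-3 kind on an ordinary diet. Omega-3 fatty acids compete with arachidonic acid for the enzymes that make eicosanoids, and they are precursors of resolvins and related mediators that act on receptors of leukocytes. In the resting lung, alveolar macrophages clear surfactant and particles, interstitial macrophages and dendritic cells sample tissue, and endothelium and epithelium form the surfaces around them.

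Depth and control probes set the limits of what could be seen. Recovered counts ran from 110453 to 793974 per lung, 66 to 232 of 754 genes were at the floor, and the scale factor between counts and values ran from 0.682 to 4.21. The lowest value above the floor was therefore 20.4 in the best lung and 84.3 in Fat-1 male lung 1 of day 1, whose genes under that level are hidden. Of 734 endogenous genes, 472 were above the floor in all 10 lungs, 606 in at least 5, 68 in 1 to 4, and 60 in none. No difference between the genotype groups passed a test in scale factor, recovered counts, genes at the floor, binding density, positive and negative control probes, or mean housekeeping level (exact permutation tests, two-sided, p = 0.262 to 0.976, with 0.00794 the smallest that 5 against 5 can give). Among WT lungs, 3 stood apart in these measures. The geometric mean of the positive control probes was 439 in WT female lung 1 of day 1, 1904 in WT female lung 1 of day 2 and 187 in WT male lung 1 of day 2, against 629 to 827 in the other 7 lungs, and WT male lung 1 of day 2 also had a saturation message with a binding density of 3.12.

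The panel held the signature of lung tissue in every lung. Endothelial genes were well above the floor in all 10: Cdh5, the junctional cadherin of vessels, at 1404 to 2087, Tek, the angiopoietin receptor, at 1429 to 2654, and Thbd, which encodes thrombomodulin, at 4211 to 5657. The epithelial cadherin Cdh1 lay between 1935 and 3050, and Lamp3, found in type 2 pneumocytes and in mature dendritic cells, between 5011 and 8551. Alveolar macrophage genes were present after lavage, with Siglecf, a sialic acid lectin, at 119 to 209 and Chil3, a chitinase-like protein, at 5755 to 19242. Monocyte and macrophage genes Csf1r and Ccr2 lay at 550 to 810 and 178 to 394. Neutrophil transcripts S100a8 and S100a9 were above the floor in all lungs, whereas Ly6g, Elane and Mpo, which mark neutrophils and their precursors, were at the floor in all 10. Mast cell genes Cpa3, Tpsb2 and Ms4a2 and the eosinophil peroxidase Epx were also at the floor in all 10. Of 19 listed mast cell, eosinophil and basophil genes on the panel, 5 were at the floor in all 10 lungs. Above it in all 10 were 6, among them Hdc at 136 to 314 and Gata2 at 305 to 744. Common markers of red blood cells, heart muscle and fat that had been listed (Hbb-bs, Alas2, Myh6, Tnnt2, Adipoq, Plin1) were not analysed here, and neither were Sftpc or Cd3e. These are bulk lungs, so fewer cells of a type and less RNA per cell cannot be told apart.

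The main comparison asked which genes of the panel differed between Fat-1 and WT lungs without dust. In limma's test with sex and day as covariates, 0 of 626 genes passed an adjusted p under 0.05 (0%), and the smallest adjusted p was 0.99. Before adjustment 16 genes had p under 0.05, with 12 at higher and 4 at lower values in Fat-1. The median log2 difference over all tested genes, Fat-1 minus WT, was 0.04, with 365 genes above 0 and 261 below. The 95% intervals give a range for the difference of each gene on its own, without adjustment for the number of genes tested. They rest on groups by code, with which other labels disagree for 3 lungs. Above the floor in all 10 lungs were 491 of the 626 genes, and for the rest the interval also depends on the value set as floor. The median half-width of the 95% interval was 0.40 on the log2 scale, and for 530 of 626 genes (84.7%) the interval lay wholly within 2-fold in either direction. The groups of 5 failed to overlap for 3 genes (0.479%): as listed, Glg1 was higher in all Fat-1 lungs, and Rgl1 and the housekeeping gene Polr1b were lower. For Polr1b, Fat-1 male lung 1 of day 1 was at the floor, where any value under 84.3 is hidden, so its place against the WT lungs (61.3 to 84.3) is not known. Glg1 was named after its values were seen. The plot of all tested genes shows this spread around 0.

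**Figure D1:**
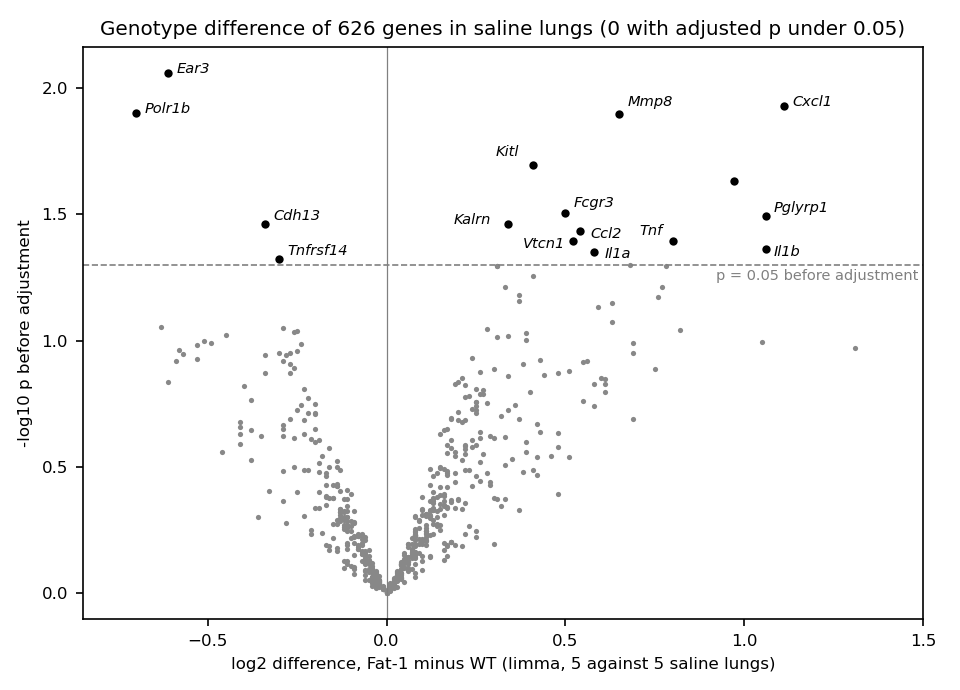
Each point is 1 of 626 genes, with the log2 difference Fat-1 minus WT on the x axis and -log10 of limma's p before adjustment on the y axis (5 against 5 saline lungs). In all 16 genes lie above the dashed line of p at 0.05 before adjustment, 12 on the Fat-1 side and 4 on the WT side, and 0 genes have an adjusted p under 0.05.

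Ear3, a ribonuclease of the eosinophil-associated family, had the smallest p. Its values were 1081, 1035, 977, 1242 and 1035 in Fat-1 and 2295, 1478, 1239.5, 1924 and 1445 in WT (listed as female of day 1, female of day 2, male of day 1 and both males of day 2, an order kept below). All Fat-1 lungs but male lung 1 of day 2 were under the lowest WT lung. Means were 1070 ± 101 in Fat-1 and 1680 ± 426 in WT (SD, n = 5 each), a log2 difference of -0.61 (SE 0.19, 95% interval -1.03 to -0.19, limma's adjusted p = 0.99). The Ear genes are a close family whose probes may share targets, so the member is uncertain. By characteristics the difference was -0.45, and it was -0.33 without the 3 WT lungs that stood apart, which leaves 2 WT lungs, both male. The genes whose log2 values followed Ear3 most closely over the 10 lungs were Loxl2, a lysyl oxidase (Pearson r 0.89), the tetraspanin Cd151 (0.88), H2-Ab1, a class II chain (0.87), the invariant chain Cd74 (0.83), and Cd180, a Toll-like receptor relative of B cells and macrophages (0.84). These 10 points share their scale factors, and WT female lung 1 of day 1 was highest in Ear3, Loxl2, Cd151 and Cd180.

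Kitl, the ligand of the receptor Kit on mast cells and progenitors, measured 2828, 3245, 2739, 2989 and 2980 in Fat-1 and 1536, 2078, 2243, 2815 and 2651 in WT. Of the Fat-1 lungs, 4 were above every WT lung, and only male lung 1 of day 1 fell within the WT range. The means of 2960 ± 193 and 2260 ± 504 gave a log2 difference of 0.41 (SE 0.15, 95% interval 0.08 to 0.75, limma's adjusted p = 0.99). In females the difference was 0.76 and in males 0.18, and the WT female lungs were the lowest of all.

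Classical activation and inflammatory cytokine genes gave 19 positive and 13 negative differences among 32 tested, with a median of 0.08 and 0 passing. Of them, Il1a, Il1b, Tnf and Ccl2 had p under 0.05 before adjustment. Cxcl1, a neutrophil chemokine, was 88.6, 103, 20, 108 and 97.2 in Fat-1 and 20, 86.1, 20, 53.9 and 20 in WT, with 1 Fat-1 and 3 WT lungs at the floor. Its log2 difference of 1.11 (SE 0.36, 95% interval 0.31 to 1.92) was 0.18 when all lungs were given the same floor of 84.3, under which 5 of its 10 values lie. Il1b, the interleukin-1 beta gene, was 220, 114, 177, 183 and 136 in Fat-1 against 20, 152, 79.5, 126 and 86.6 in WT, a log2 difference of 1.06 (SE 0.46, 95% interval 0.04 to 2.09). The groups overlapped, and WT female lung 1 of day 1 alone was at the floor. With a common floor Il1b was at 0.64, and Tnf, the tumour necrosis factor gene, was at 0.80 without and 0.01 with it, since 9 of its 10 values lie under that floor. Fcgr3, the low-affinity IgG receptor of myeloid cells, lay above the floor everywhere, at 116, 84.3, 152, 144 and 112 in Fat-1 and 71.3, 103, 70.4, 103 and 76.4 in WT. Its means of 122 ± 27.1 and 84.8 ± 16.8 differed by 0.50 (SE 0.20, 95% interval 0.06 to 0.95), with 4 of 5 Fat-1 lungs above every WT lung.

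Further genes had p under 0.05 before adjustment, some of them with lungs at the floor. The neutrophil collagenase Mmp8 was at a log2 difference of 0.65, with 2 males and 1 female at the floor. Its highest value of 81.3 lies under 84.3, so Fat-1 male lung 1 of day 1 is among those at the floor. The peptidoglycan-binding protein Pglyrp1 of neutrophil granules (1.06) had 1 lung at the floor, a WT female. The monocyte chemokine Ccl2 was at 0.54, with means of 129 ± 46.7 and 89.8 ± 41, the exchange factor Kalrn at 0.34, the inhibitory ligand Vtcn1 at 0.52, and Il1a also lay on the Fat-1 side. On the WT side Cdh13, a cadherin of vessels, was at -0.34 (120 ± 26.2 against 152 ± 27.4) and Tnfrsf14, the receptor HVEM, at -0.30. Polr1b, an RNA polymerase I subunit used on the panel as a housekeeping gene, was 50.1, 55.6, 20, 54.9 and 48.6 in Fat-1 and 84.3, 68.4, 61.3, 66.8 and 76.4 in WT. Its log2 difference was -0.70, and 0.00 under the common floor, which hides nearly all of these values.

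**Figure D2:**
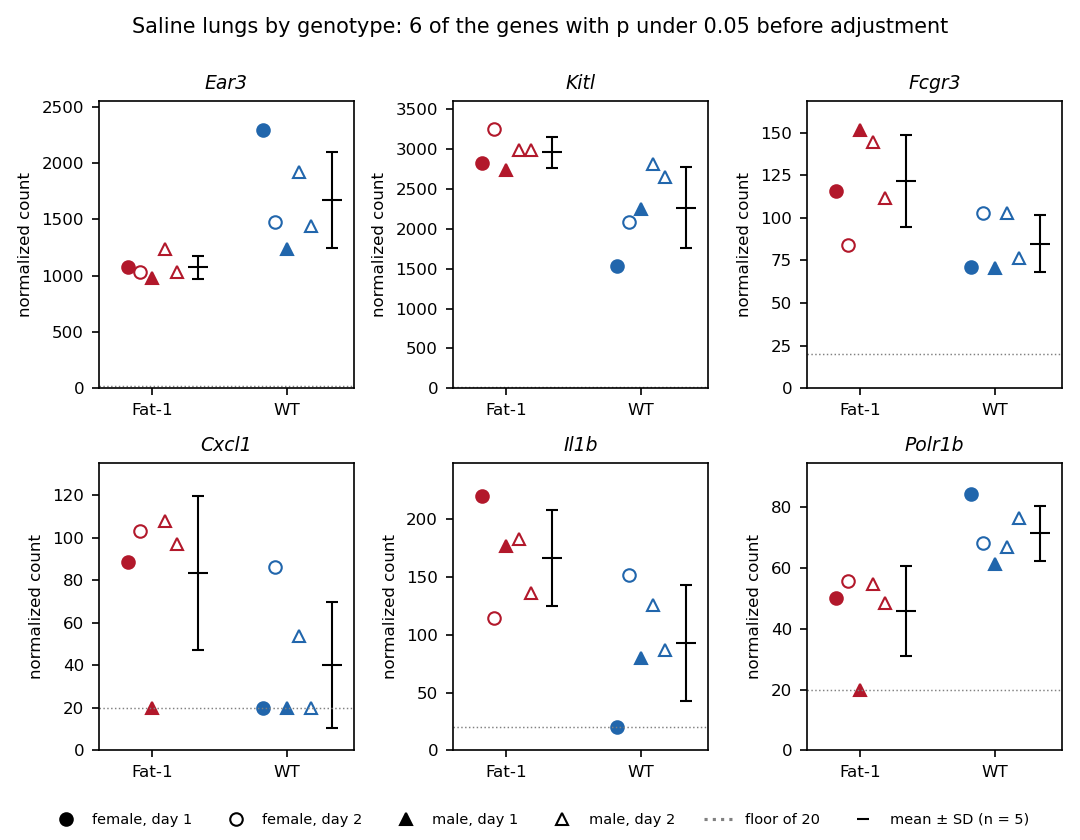
Normalized counts of 6 genes in each saline lung, Fat-1 in red and WT in blue, with circles for females, triangles for males, filled symbols for day 1 and open symbols for day 2. The bars give mean ± SD (n = 5), and the dotted line the floor of 20. Ear3 values cluster between 977 and 1242 in Fat-1 and spread from 1239.5 to 2295 in WT, while Cxcl1 has 3 WT lungs and 1 Fat-1 lung on the floor.

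Genes that handle the products of omega-3 and omega-6 fatty acids were taken next, since the transgene's enzyme acts on these fatty acids. Of 4 tested genes for receptors of omega-3 fatty acids and resolvins or their partners, 0 passed, and their median log2 difference was 0.10 against 0.04 for all genes. Anxa1, whose protein annexin A1 acts on formyl peptide receptors, was at 1553, 1595, 1567, 1471 and 1607 in Fat-1 and 898, 1239, 1607, 2079 and 1357 in WT. The Fat-1 lungs lay within the wide WT range, and the difference was 0.17 (SE 0.19, 95% interval -0.25 to 0.59). Fpr2, the receptor for annexin A1 and resolvin D1, was 239 ± 44.1 in Fat-1 and 236 ± 27.3 in WT (log2 difference 0.01, 95% interval -0.34 to 0.36). Pparg, a nuclear receptor for fatty acids, was at 0.12 (95% interval -0.27 to 0.51), and Ltb4r1, the leukotriene B4 receptor to which resolvin E1 also binds, at 0.07 (-0.53 to 0.67).

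Enzymes and receptors of the eicosanoid pathway gave 7 positive and 7 negative differences among 14 tested, with a median of 0.01 and 0 passing. The cyclooxygenase genes Ptgs1 (775 ± 78.9 in Fat-1, 757 ± 220 in WT) and Ptgs2 (215 ± 53.2, 187 ± 46.0) had log2 differences of 0.07 and 0.21. Alox5, the enzyme that begins leukotriene synthesis, was 139, 119, 148, 144 and 159 in Fat-1 and 233, 132, 177, 168 and 158 in WT, a difference of -0.27 (SE 0.16, 95% interval -0.62 to 0.08). Its groups overlapped. Alox5ap, which presents arachidonic acid to that enzyme, was at 0.17, and Lta4h, which makes leukotriene B4, at 0.03 with an interval of -0.26 to 0.32. Hpgd, which inactivates prostaglandins, was strongly expressed at 8061 to 15612 and differed by -0.07 (-0.51 to 0.38). Ptger2, a prostaglandin E2 receptor, was at -0.53 (-1.23 to 0.16) with Fat-1 male lung 1 of day 1 at the floor, and at -0.13 under a common floor. Alox15, which also acts on omega-3 fatty acids, was at the floor in 6 lungs and was not tested.

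Fatty acid synthesis, oxidation and uptake was tested in 10 genes, of which 8 were positive, 2 negative and 0 passed (median 0.04). Fasn, the fatty acid synthase, was 2740 ± 239 in Fat-1 and 2730 ± 509 in WT, a log2 difference of 0.02 (95% interval -0.28 to 0.32). Acly, which supplies its acetyl-CoA, was at 0.10. Cd36, a fatty acid transporter, measured 10707, 9759, 9686, 10051 and 9338 in Fat-1 and 8015, 6208, 9387, 13127 and 9697 in WT. The difference was 0.14 (-0.27 to 0.54), and the Fat-1 lungs sat inside the WT range. Elovl6, a fatty acid elongase near the floor, had the lowest value of the list at -0.41 (-1.09 to 0.27). Lipoprotein and scavenger receptors gave 10 positive and 4 negative of 14, median 0.07, with the scavenger receptor Marco at 0.59 (SE 0.29, 95% interval -0.07 to 1.25).

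Chemokines recruit leukocytes into tissue. Of 27 tested, 24 had a difference above 0 and 3 below, against 365 and 261 of all genes, and 0 passed. The median was 0.24, or 0.19 after median centring of each lung and 0.23 without the 3 WT lungs that stood apart, but 0.11 without WT female lung 1 of day 1 alone. The chemokine Ccl9 of myeloid cells was 536, 467, 367, 614 and 509 in Fat-1 and 172, 773, 254, 332 and 238 in WT. All Fat-1 lungs were above 4 of the 5 WT lungs, and WT female lung 1 of day 2 was above them all. This pattern was not counted over all genes. The difference was 0.68 (SE 0.30, 95% interval 0.00 to 1.37). Named after their values were seen, Cxcl14 (1900 ± 200 against 1610 ± 327) and Cxcl12 (1830 ± 125 against 1640 ± 368), which are far above the floor, were at 0.26 and 0.19. Of the 27 chemokines, 12 were above the floor in all 10 lungs.

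Immediate early genes, which are switched on within minutes of a stimulus, had 16 positive and 2 negative members of 18, with a median of 0.27 and 0 passing. Their summed level was 20006 in Fat-1 female lung 1 of day 1, a lung that its title and characteristics call WT, against 10370 to 14562 in the other Fat-1 lungs and 8368 to 13453 in WT. Without that lung 12 members were positive and 5 negative with a median of 0.16, and without WT female lung 1 of day 1, the lowest, 11 and 7 with a median of 0.11. Atf3, a stress-induced transcription factor, was 796, 149, 506, 362 and 204 in Fat-1 and 130, 186, 186, 368 and 155 in WT, a difference of 0.82 (SE 0.44, 95% interval -0.16 to 1.80). Jun was at 0.31 and the antiproliferative gene Btg2 at 0.44. The list's median was 0.48 between females and 0.05 between males, and 0.10 when groups followed the characteristics. Antigen presentation leaned the other way, with 7 positive and 17 negative members of 24 and a median of -0.13. H2-Eb1, a class II chain, was at -0.34 and Cd74, the invariant chain, at -0.27 (8430 ± 505 against 10300 ± 2030). Without the 3 WT lungs that stood apart, the antigen presentation median was 0.01, and it was -0.05 without WT male lung 1 of day 2 and -0.06 without Fat-1 female lung 1 of day 2.

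For the other groups the median over all lungs is followed by that without the 3 WT lungs that stood apart, where the median of all genes was 0.06. That second fit sets 5 Fat-1 lungs of both sexes against 2 WT lungs, both male, so sex is no longer balanced. WT male lung 2 of day 2, whose title disagrees with its code, is among the WT lungs that remain. Alveolar macrophage genes had a median of 0.03 over 10 tested, and 0.26 without the 3 WT lungs. Monocyte and interstitial macrophage genes were at -0.02 over 20 and 0.25, and complement genes at 0.00 over 9 and 0.39. Neutrophil genes were at 0.10 over 14, with 10 positive and 4 negative, and 0.34, with Mmp8, Fcgr3 and Pglyrp1 at p under 0.05 before adjustment. These 4 medians thus moved upward without the 3 WT lungs. Dendritic cell genes were at 0.10 over 15 and 0.16, alternative activation at 0.06 over 20 and 0.22, pattern recognition at 0.13 over 22 and 0.22, and cell cycle genes at 0.08 over 5 and 0.43. Chemokine receptors had 10 positive and 3 negative of 13, with a median of 0.16 that was -0.01 without those lungs, and the 3 platelet genes went from 0.20 to 0.01. Growth factors and Wnt genes were at 0.08 over 24 and -0.03, B and plasma cell genes at 0.11 over 6 and -0.04, T cell genes at 0.14 over 6 and 0.14, cytotoxic lymphocyte genes at -0.06 over 5 and -0.12, and mast cell, eosinophil and basophil genes at -0.01 over 7 and -0.15. Endothelium was at -0.01 over 16 and -0.05, epithelium at 0.08 over 3 and 0.15, fibroblast and matrix genes at -0.03 over 15 and -0.04, interferon response genes at 0.00 over 14 and -0.03, and TGF-beta and BMP genes at -0.02 over 9 and 0.01. Stress genes were at 0.10 over 4 and 0.09, fat tissue genes at 0.12 over 3 and 0.34, and sex chromosome genes at -0.11 over 5 and 0.32. The list of muscle and nerve genes had 1 tested member (0.00), and that of red blood cells had 0. Summed levels of the marker lists overlapped between genotypes, at 13748 to 20226 in Fat-1 and 13477 to 28883 in WT for alveolar macrophages, and 3002 to 5328 against 3025 to 4347 for neutrophils. Such sums follow the most abundant members of a list. The 28883 belongs to WT female lung 1 of day 2, in which Chil3 alone was at 19200. In limma's test 0 members of these lists passed, as for all 626 genes, of which 16 had p under 0.05 before adjustment.

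**Figure D3:**
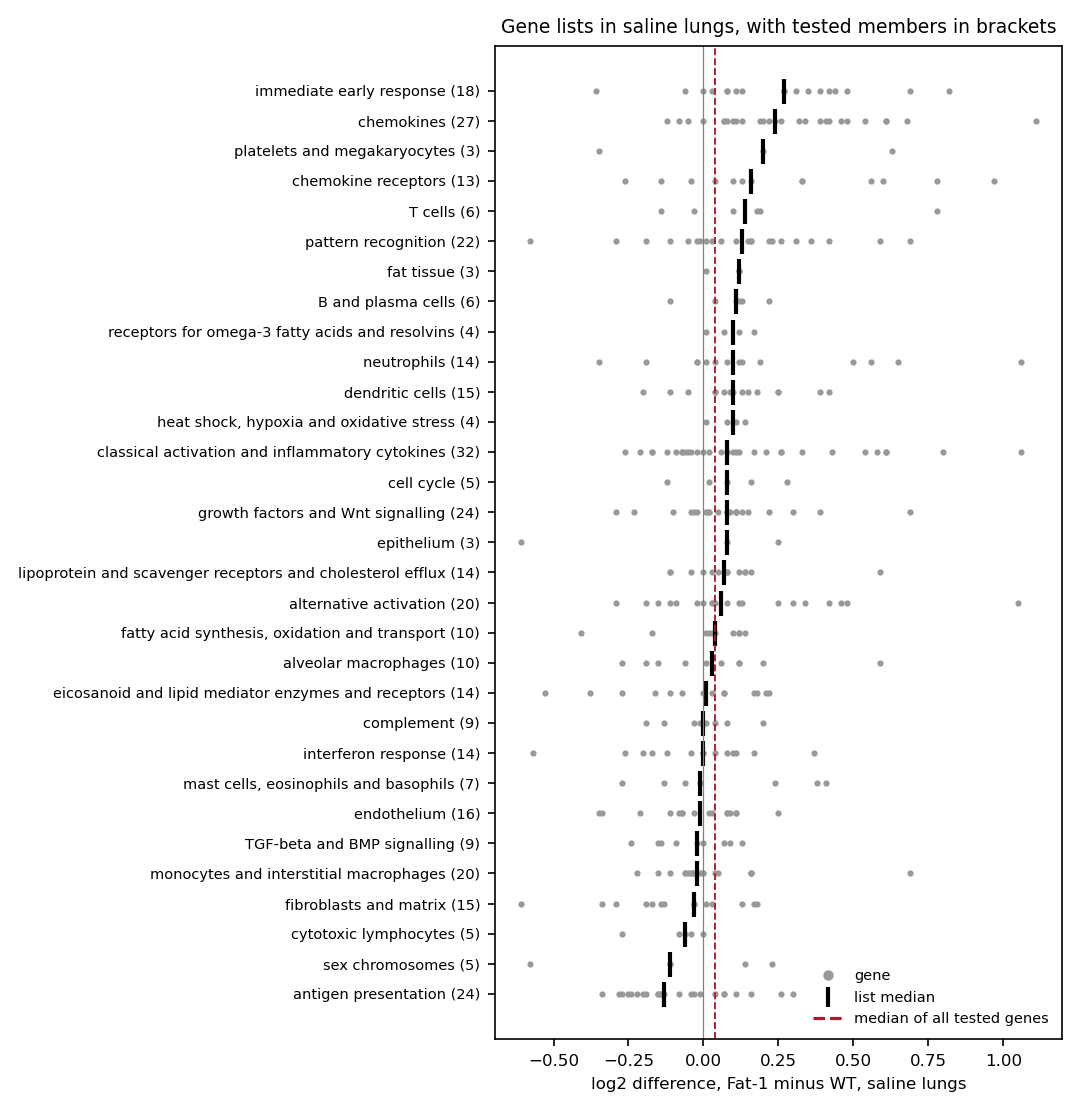
Log2 difference Fat-1 minus WT of each tested gene (grey points) and the median (black bar) for every list with 3 or more tested members, with the number tested in brackets and the median of all 626 genes (0.04) as a dashed line. List medians run from -0.13 for antigen presentation to 0.27 for immediate early genes, and the single genes from -0.61 to 1.11.

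Variation between lungs within a genotype was described next. After genotype, sex and day were taken out, Retnla had the largest SD of log2 value (1.13) of the 491 genes above the floor in all 10 lungs, followed by Nr4a1 (0.98), Nos2, the inducible nitric oxide synthase of classical activation (0.85), Atf3 (0.84), Nr4a2 (0.60) and Dusp1 (0.59). Retnla encodes RELM-alpha, a secreted protein of alternatively activated macrophages and airway epithelium that interleukin 4 and interleukin 13 induce through the transcription factor STAT6. Ccl17, the chemokine for Th2 cells, is another gene of that pathway, and it came next at 0.58. Both genes had their highest value in the same lung, as did Chil3, Chil4, Arg1 and Mmp12, given below. Only the promoters of Retnla and Ccl17 are shown, a choice made by hand. The sequences are RefSeq's for GRCm38.p6, plus strand, 250 bases before to 50 after the annotated start, at chr16:48842359-48842658 for Retnla and chr8:94810203-94810502 for Ccl17. Capitals mark the motif searched, TTC and GAA with any 4 bases between them, the spacing that STAT6 prefers, which reads the same on both strands.
Retnla: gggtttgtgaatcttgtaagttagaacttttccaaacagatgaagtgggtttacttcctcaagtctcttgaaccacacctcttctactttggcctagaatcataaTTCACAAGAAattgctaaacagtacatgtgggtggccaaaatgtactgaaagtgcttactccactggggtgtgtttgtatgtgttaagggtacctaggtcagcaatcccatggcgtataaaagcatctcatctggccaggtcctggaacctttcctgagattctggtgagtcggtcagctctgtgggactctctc
Ccl17: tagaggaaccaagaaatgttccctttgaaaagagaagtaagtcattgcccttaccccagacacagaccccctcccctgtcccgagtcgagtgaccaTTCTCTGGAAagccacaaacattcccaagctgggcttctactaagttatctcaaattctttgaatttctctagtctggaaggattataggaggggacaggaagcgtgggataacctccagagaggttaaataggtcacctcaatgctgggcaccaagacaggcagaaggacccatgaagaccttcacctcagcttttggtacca
The match lies 145 to 136 bases before the start in Retnla and 154 to 145 bases before it in Ccl17. Counted by gene, such a match stood in 2164 of all 27025 genes with a promoter entry (8.01%). It stood in 28 of the 478 tested genes with an entry (5.86%), and in 4 of 18 tested alternative activation genes with an entry (22.2%). Retnla and Ccl17 are among those 4. The match is a description of these letters and no evidence of binding.

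Retnla measured 12077, 8315, 6699, 11841 and 9749 in Fat-1 and 4891, 39489.6, 1628, 3449 and 1871 in WT. The Fat-1 lungs all lay above 4 of the WT lungs, and WT female lung 1 of day 2 lay far above every other lung. The log2 difference was 1.05 (SE 0.58, 95% interval -0.25 to 2.35). Without that lung it was 1.72 (adjusted p = 0.155), and in males alone, 3 against 3, it was 2.07 (adjusted p = 0.0879), so neither passed. By characteristics it was 0.93. Retnla is not among the 3 of 626 genes whose groups of 5 failed to overlap. Genes with all Fat-1 lungs above 4 WT lungs were not counted. Ccl17 was 208, 472, 282, 380 and 394 in Fat-1 and 146, 842, 145, 261 and 209 in WT (log2 difference 0.42, SE 0.31). Here too WT female lung 1 of day 2 was the highest, with the remaining groups overlapping. The same lung was the highest for the chitinase-like genes Chil3 (19242, against 5755 to 8913 in the other 9) and Chil4 (6346, against 1946 to 3072), for Arg1, the arginase of alternative activation (292), and for Mmp12, the macrophage elastase (766, with the other lungs at 20 to 358). Chil3 and Chil4 had log2 differences of -0.19 and -0.29. Chil3, Chil4, Arg1 and Mmp12 were named after their values were seen. The summed level of the 20 alternative activation genes was 71862 in that lung, 20489 to 30051 in Fat-1 and down to 15449 in WT. Retnla, Chil3 and Chil4 belong to that list and make up most of its sum in that lung, so the sum largely repeats their values. Interleukin 4 itself was at the floor in 9 lungs. Control probes of that lung also differed, as given above, and their part in these values was not tested.

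**Figure D4:**
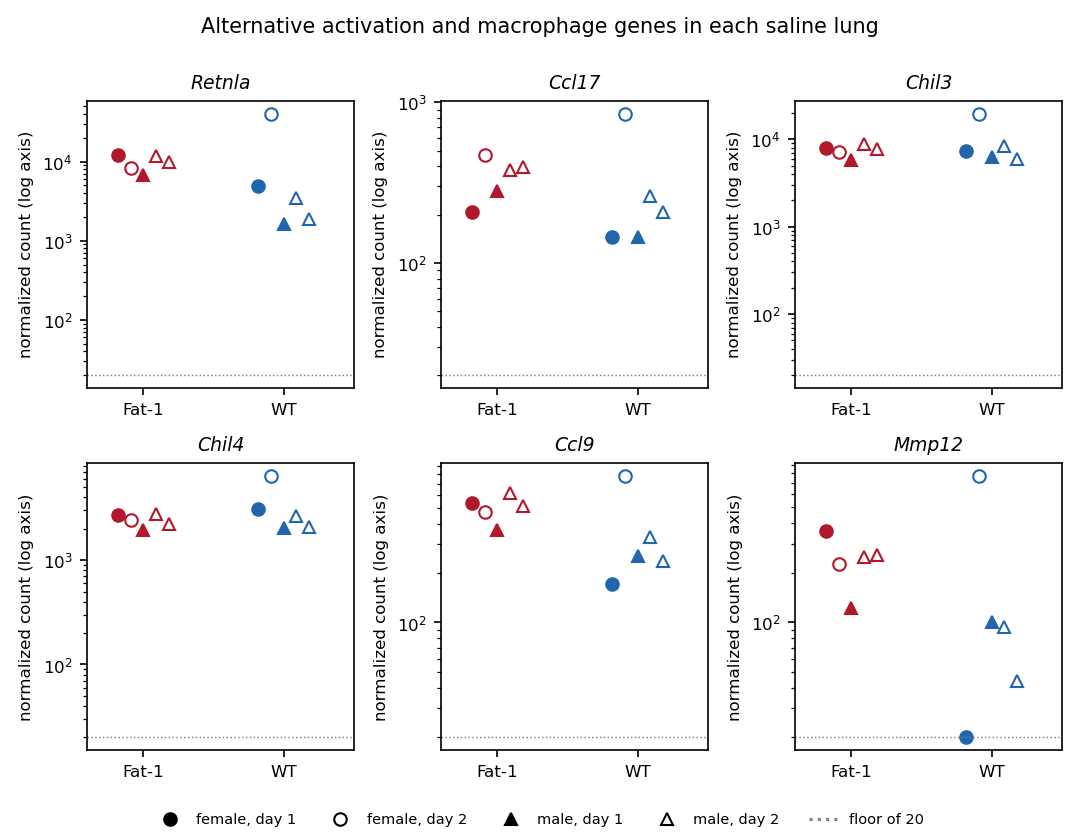
Normalized counts on a log axis for 6 genes of alternative activation and macrophages in each saline lung, with Fat-1 in red, WT in blue, circles for females, triangles for males, filled for day 1 and open for day 2. WT female lung 1 of day 2 (open blue circle) is highest in all 6 panels, and for Retnla and Ccl9 all 5 Fat-1 lungs lie above the other 4 WT lungs. This pattern was not counted over all genes.

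WT lungs differed more among themselves than Fat-1 lungs. Over 491 genes the median SD of log2 value was 0.30 in WT and 0.18 in Fat-1, and 376 genes (76.6%) had the larger SD in WT. Retnla had an SD of 1.85 in WT and 0.36 in Fat-1, Ccl17 1.04 and 0.46, and Stat6, the transcription factor of interleukin 4 signalling, 0.64 and 0.09. Nr4a1 went the other way, at 0.51 in WT and 1.41 in Fat-1: its values were 1489, 142, 699, 356 and 174 in Fat-1 and 143, 249, 386, 267 and 228 in WT. With the 3 WT lungs that stood apart left out, the median SD in WT was 0.11 over the remaining 2 lungs. The first principal component (25.4% of variance) set WT female lung 1 of day 1 apart, and the second (22.1%) set WT female lung 1 of day 2 apart. The former was low for Stat6 (266, with 616 to 781 in the other WT lungs) and for Tspan7, an endothelial tetraspanin (1912 against 3706 to 4099). It was high for Smad1 (454 against 268 to 301). The spread was not tested as a genotype effect, and its relation to the control probes was not tested.

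**Figure D5:**
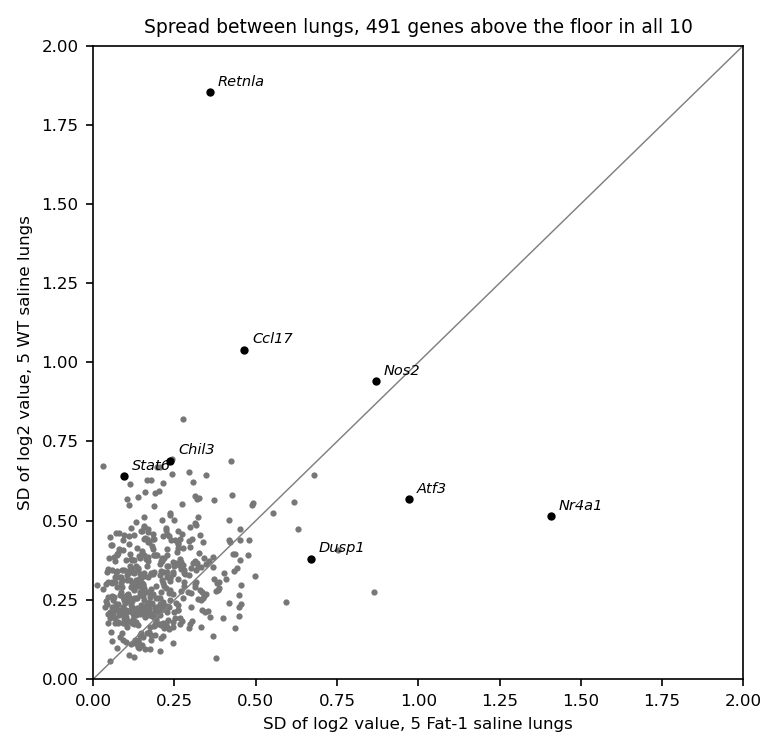
SD of log2 value over 5 Fat-1 lungs (x axis) and over 5 WT lungs (y axis) for 491 genes, with the line of equal spread. Most points (76.6%) lie above the line, with Retnla at 0.36 and 1.85, while Nr4a1 and Atf3 lie below it.

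Whether the genotype difference was alike in both sexes was tested as an interaction in limma, and 0 of 626 genes passed (0%; 50 with p under 0.05 before adjustment, smallest adjusted p 0.503). Fn1, the fibronectin gene, had the smallest p: its difference was -0.51 in females and 0.65 in males (interaction 1.16, SE 0.25, limma's adjusted p = 0.503). Its values were 3156 and 3786 in Fat-1 females and 4845 and 5009 in WT females, but 3421, 4428 and 3935 in Fat-1 males and 2506, 2283 and 2710 in WT males, with no overlap within either sex. Fn1 was chosen by its p, and such separation was not counted over all genes. Top2a, a topoisomerase of dividing cells (-0.59 and 0.87), Csf2ra, a GM-CSF receptor chain (-0.83 and 0.63), the inflammasome sensor Nlrp3 (-0.70 and 0.57) and Mcm5, a replication helicase subunit (-0.66 and 0.47), had the same order of signs. Both WT female lungs are among those that stood apart. Without WT female lung 1 of day 2, 8 genes passed, all with a lower difference in males than in females, and they rest on the other WT female lung alone.

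The difference between males and females was called in 0 of 626 genes by limma (0%), with 30 at p under 0.05 before adjustment, 6 at higher and 24 at lower values in males, and a smallest adjusted p of 0.897. Tlr8, an X-linked receptor for single-stranded RNA, was 145 ± 17.1 in 6 males and 237 ± 43.0 in 4 females, with ranges of 122 to 165 and 200 to 298 that did not overlap (log2 difference -0.71, SE 0.16, limma's adjusted p = 0.897). Separation of the sexes was not counted over all genes. Cxcl13, the B cell chemokine, was 112 ± 26.1 in males and 71.2 ± 9.18 in females (0.67, SE 0.19). Tnfrsf14 was 182 ± 19.2 and 250 ± 53.1 (-0.47, SE 0.14).

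Extraction day gave 2 genes that passed of 626 (0.319%), both higher on day 2, with 51 at p under 0.05 before adjustment. Cxcl10, an interferon-induced chemokine, was at the floor in all 4 lungs of day 1 and at 56.0 ± 20.1 in 6 lungs of day 2 (1.44, SE 0.22, adjusted p = 0.0473). Nfkbie, an inhibitor of NF-kappaB, was 31.4 ± 22.8 and 84.9 ± 14.5 (1.69, SE 0.28, adjusted p = 0.0473), with 3 lungs of day 1 at the floor. Neither was called under a common floor of 84.3, under which 9 and 7 of their 10 values lie (0.01 and 0.12, adjusted p = 0.999 and 0.784). All 4 lungs of day 1 and 1 lung of day 2 were run on the first cartridge and the other 5 lungs of day 2 on the second, so day and cartridge can hardly be told apart. With cartridge in place of day, 2 genes also passed. Clear of the floor, Cd14, the lipopolysaccharide co-receptor, was 175 to 186 on day 1 and 222 to 441 on day 2 (0.98, SE 0.19, adjusted p = 0.0547). Cxcr5, the receptor for Cxcl13 on B cells, was 117 to 135 on day 1 and 58.0 to 84.9 on day 2 (-0.72, SE 0.15, adjusted p = 0.0547). It was above 20 in every lung, but 5 of its day 2 values lie under 84.3. Cd14 was named after its values were seen. Neither gene overlapped between days, and such separation was not counted over all genes. Each genotype holds lungs of both days in the same number.

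After dust, the genotype comparison in the other 13 lungs (6 Fat-1, 7 WT by code) also gave 0 genes, with 25 at p under 0.05 before adjustment. Fat-1 male dust lung 1 of day 1 is named WT by its title and characteristics. Fat-1 male dust lung 1 of day 2 had a saturation message with a binding density of 3.05. In Fat-1 female dust lung 2 of day 1 the positive control probes B and C had a ratio of 1.07, against 2.66 to 3.51 in the other dust lungs. The difference between the genotype effects in saline and in dust was tested with limma over 684 genes in all 23 lungs, and 0 passed (0%; 17 before adjustment, smallest adjusted p 0.997). Ear3 was at -0.61 in saline and -0.38 in dust, Kitl at 0.41 and 0.32, Cxcl1 at 1.11 and 1.00, Retnla at 1.05 and 0.52, and Fcgr3 at 0.50 and -0.12. Ifit1bl1, of the interferon-induced IFIT family, had the smallest p for the interaction (0.31 in saline, -0.92 in dust, limma's adjusted p = 0.997).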

How the data were processed

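A NanoString nCounter panel of mouse myeloid genes was run on left-lung RNA of 23 mice, of which the 10 saline lungs were analysed. The deposited values are a signal: counts multiplied by 1 factor per lung, with counts under 20, and scaled values under 20, set to 20, per the file headers and the spacing of the values, of which 100.0% above the floor were whole multiples of the lung's factor within 0.1 steps. The 14 control probes were deposited as raw counts. How the factor was computed is not given in the sources used here. Because counts under the floor are hidden, no count model was fitted.

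Lungs were grouped by extract code. Log2(value + 1) was fitted with limma 3.58.1 in R 4.3.3 (lmFit, eBayes, two-sided) on genotype, sex and extraction day, over 626 genes above the floor in at least 5 of the 10 lungs, including 20 housekeeping genes, with Benjamini-Hochberg adjustment and a threshold of 0.05. Residual degrees of freedom were 6. The script was tested on simulated data. Log2 differences are of normalized values and intervals are limma's at 95%. Of the accessions 741 of 754 matched RefSeq, with 733 symbols identical. Tables and plots used Python 3.11.15, numpy 2.4.6, pandas 2.3.3 and matplotlib 3.10.9.

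Named genes are the 10 with the smallest p in each direction where none passed, up to 3 per list, the leading genes for sex, day and interactions, the 6 with the largest and smallest spread, and the 5 most like the leading gene. All other genes in the text, tissue markers and list examples included, were chosen with their values known, and a few genes that the rule names are not reported here. The comparison, the 33 gene lists and the rules were chosen with earlier results of these data known. A common floor (all values under the highest floor of any lung raised to it), other scalings, filters, covariates and left-out lungs were tried as alternatives.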

Additional observations from a re-analysis of the deposited data

Results flagged for a closer look

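In 19 of 254 tests of a single lung against the other 4 of its genotype, 1 lung lay further from the rest than Dixon's 95% limit (0.71 for 5 lungs). Chance flags about 1 in 20 groups, and 10 of the 19 were in Fat-1 male lung 1 of day 1. That lung had the highest scale factor (4.213, against 1.214 to 2.032 in the other Fat-1 lungs), the most genes at the floor (225, against 112 to 138) and the lowest mean log2 housekeeping level (8.811, against 8.886 to 8.914). It was at the floor of 20 for Cxcl1, Polr1b, Fadd, Cd27, Ptger2 and Nfkbie, whose other Fat-1 lungs ran from 48.6 (Polr1b) to 114.5 (Ptger2), and it was low for Id3 (341.3, against 491.2 to 559.9). All but Id3 lie near or under the lowest value that this lung can show, 84.3.

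WT female lung 1 of day 1 was low for Tspan7 (1912) and Stat6 (265.8) and high for Smad1 (453.7). WT female lung 1 of day 2 was high for Rgl1 (338.3, against 224.8 to 252.4). WT male lung 1 of day 2 was low for Ltb4r1 (24.56, against 54.48 to 68.06) and had a binding density of 3.12 (0.38 to 1.03 in the other WT lungs). In Fat-1, male lung 2 of day 2 was low for the granzyme gene Gzma (147, against 230.5 to 256.2), and female lung 1 of day 2 was low for Tlr13 (57.24, against 101.1 to 115.8) and the only Fat-1 lung above the floor for the ribonuclease gene Rnase2a (33.39). The causes were not tested.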

How the results depend on the processing

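The genotype comparison gave 0 genes under all 30 alternatives, which included other filters, a common floor, median centring, housekeeping scaling, a pseudocount of 20, groups by characteristics, left-out lungs, single days and a fit over all 23 lungs. With a replicate block it gave 0 genes (11 with p under 0.05 before adjustment), and the replicate numbers did not pair the lungs. Without single lungs the count stayed at 0 to 0, with 14 to 54 genes before adjustment, most without WT female lung 1 of day 2 (smallest adjusted p 0.155). Alternatives chosen after seeing the data also gave 0 genes: without the 3 WT lungs that stood apart (37 before adjustment), without both WT female lungs (45), in males only (45, smallest adjusted p 0.0879) and over endogenous genes alone (15). The 20 genes with the smallest p in each direction kept their sign or were at 0.00 under every alternative that could be fitted. Over all named genes, 88 of 3520 values moved by more than the spread between lungs and 0 passed the threshold. As none passed, a reversal after passing could not occur. Signs did differ between settings for some named genes, as for Des in 21 of 30 (-0.22 to 0.33) and Fabp4 in 13 of 30 (-0.27 to 0.54). The interaction with sex gave 0 genes under all alternatives but 1, with a range of 0 to 8 when single lungs were left out, and the count of 8 came without WT female lung 1 of day 2. The sex difference gave 0 in every setting and without each lung. The interaction with exposure gave 0 in every setting. The day count of 2 moved to 0 with genes above the floor in at least 1 lung, 0 with housekeeping scaling, 0 by characteristics, 0 without the lungs with discordant labels, 1 with a common floor (Cxcr5, of which 5 of 6 values of day 2 lie under that floor and become equal), 1 with a pseudocount of 20 and 8 with median centring, and ranged from 0 to 13 when single lungs were left out, highest without Fat-1 female lung 1 of day 1. The causes of these moves were not tested. Depth limits genes near the floor, since values under 84.3 are hidden in the shallowest lung.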

Other observations

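Among the genes with the least spread between the 10 lungs were signalling and cytoskeletal genes. After genotype, sex and day were taken out, the SD of log2 value was 0.051 for Mapk14, the p38 kinase, 0.083 for Vasp, an actin regulator, and 0.089 for the housekeeping gene Hprt. Mapk14 was 628 ± 23 in Fat-1 and 579 ± 22.7 in WT, a log2 difference of 0.12 (limma, 95% interval -0.14 to 0.37).

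Type 2 cytokine transcripts were near the floor in these lungs. Il4 was at the floor in 9 of 10 lungs and Ccl24, an eosinophil chemokine, in 9, and Il13 was above it in 6 with a highest value of 72.6. The highest Ccl24 value was 108. These genes were named after their values were seen.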
